A study of Mus musculus with 32 samples.

Results

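Immediate-early genes are genes that cells switch on within minutes of a growth factor, stress or other signal. RNA sequencing counts were described for 39 mouse genes of this class, the gene rows whose Ensembl identifiers matched, in the GENCODE annotation of build mm10, a list of 39 symbols; all 39 were found among 55335 gene rows. They comprised 9 Fos, Jun (AP-1) and small Maf factors, 15 other transcriptional regulators, 10 feedback phosphatases, inhibitors and mRNA decay factors, and 5 survival, signalling and cytoskeletal effectors. The study followed RNA from the mouse oocyte to the early embryo in 32 libraries, 16 groups of 2. Growing oocytes (P14) came from females at postnatal day 14, and both groups carried a transgene for histone H3.3. In the H3.3K4M group its lysine 4 was replaced by methionine, and in the H3.3WT group it was not. The transgene's promoter is not given here, since no source used states it. All other groups were labelled wild type. Metaphase II (MII) oocytes, the mature unfertilised eggs, came from females of 8 weeks or 12 months. Untreated 2-cell embryos came from 12-month females. The other 2-cell embryos and all 4-cell embryos came from females of 6 to 8 weeks and were cultured in KSOM medium with the vehicle DMSO, with aphidicolin, which blocks replicative DNA polymerases, with cycloheximide, which blocks translation, or with MG132, which blocks the proteasome. Per the titles all embryos came from in vitro fertilisation. Cells of the AB2.2 embryonic stem cell line, whose titles carry the unexplained word Long, received DMSO, cycloheximide or MG132. The sources used here give neither drug doses nor durations.

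Immediate-early genes are transcribed by factors that are already present, such as SRF with its ELK and MRTF partners, CREB and NF-kB, so their induction does not need new protein. Many encode transcription factors, others encode brakes such as the MAP kinase phosphatases (Dusp genes) and the NF-kB inhibitor Nfkbia, and many of their mRNAs carry AU-rich elements that mark them for rapid decay. In cultured cells, blocking translation is known to prolong or raise these mRNAs. Growing oocytes transcribe, MII oocytes are transcriptionally silent and hold stored mRNA, and in the mouse the embryonic genome becomes broadly active at the 2-cell stage.

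Levels below are CPM, a gene's counts per 1000000 counts of its library, genes and repeats together, and a pair of values is always replicate 1 and then replicate 2 of a group (n = 2). Log2 fold changes (± standard error) and p values were estimated by edgeR's quasi-likelihood method, p was adjusted over all genes tested by the Benjamini-Hochberg procedure, and a gene counts as called where its adjusted p is under 0.05. A value in parentheses after a gene, with or without a standard error, is its log2 fold change. Where libraries of 2 groups are said not to overlap, this describes the values. Non-overlap was part of the rule by which genes were named, so it adds no support to a call. Fold changes use the scaling of the fit, which can differ from the ratio of 2 CPM values. The largest such gap was -0.81 on the log2 scale, between MII oocytes and vehicle 2-cell embryos, and the next was 0.53, between cycloheximide and MG132 in 2-cell embryos. The labels do not say whether the 2 libraries of a group came from separate cultures or animals. The p values therefore reflect the spread between libraries of a group, and this may be technical. That spread was estimated over all groups of a fit together. Groups other than those compared can thus enter it, such as all 2-cell groups in each comparison within the 2-cell stage. No spike-in is stated, so a change is relative to the rest of the library, and fewer cells of a type and less RNA per cell cannot be told apart. Stem cell libraries were made with a TruSeq poly(A) kit and all others with Smart-seq2, so kit and system cannot be told apart. Total counts ran from 14313718 (2-cell aphidicolin replicate 1) to 34713159 (4-cell aphidicolin replicate 2). The labelled types held their markers: 12 oocyte genes summed to 39735 to 42159 CPM in growing oocytes and 13213 to 14542 CPM in MII oocytes against 58.2 to 87.2 CPM in stem cells, 10 stem cell genes to 5316 to 6467 CPM in stem cells, and 10 genes of the 2-cell stage to 1832 and 2074 CPM in vehicle 2-cell embryos. The last 2 lists were not particular to those types. The stem cell genes summed to 5585 to 6286 CPM in growing oocytes and 4318 and 5195 CPM in vehicle 4-cell embryos. The 2-cell genes summed to 463 and 347 CPM in H3.3WT growing oocytes and 462 and 449 CPM in 12-month MII oocytes. Replicates of 1 group stood apart for the listed genes in MII oocytes of 8 weeks (508 and 301 CPM summed over the 39), in vehicle 2-cell embryos (482 and 334 CPM) and in 2-cell embryos with cycloheximide (427 and 612 CPM). In vehicle 2-cell embryos 15 of the 39 genes reached 10 CPM in replicate 1 and 8 in replicate 2. Counts without a library of these groups stand beside the results or as ranges in the closing section.

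Of the 39 genes, 30 had an entry in the RefSeq promoter table (GRCm38.p6). The CArG box, the core that SRF binds, was found on either strand in 4 of these 30 (13.3%: Dusp5, Egr2, Srf and Zfp36) against 1.81% of 27025 genes. The full cyclic AMP response element TGACGTCA, bound by CREB, was found in 2 (6.67%: Dusp1 and Maff) against 2.03%. Its first 5 letters TGACG were found in 18 (60%) against 23.0%; these hits include the full element. The AP-1 site TGANTCA was found in 2 (6.67%: Csrnp1 and Zfp36l1) against 8.97%. The NF-kB site, searched after the values of Nfkbia and Nfkbiz had been seen, was found in 7 (23.3%) against 5.14%. A match is a description of the letters and not evidence of binding, and no match says only that these letters are not in this window. Shown here, 5′ to 3′ on the gene's own strand with the matched motif in capitals, are the promoters of Srf, which rose from oocyte to embryo and has 2 CArG boxes, starting at -82 and -62 from the start site; Dusp1, which was called in growing oocytes, embryos and stem cells and has the full cyclic AMP response element, starting at -143; and Nfkbia, which rose with both drugs at the 2-cell stage and has an NF-kB site starting at -29. They lie at chr17:46556113-46556412, chr17:26508423-26508722 and chr12:55492598-55492897, all on the minus strand.
Srf: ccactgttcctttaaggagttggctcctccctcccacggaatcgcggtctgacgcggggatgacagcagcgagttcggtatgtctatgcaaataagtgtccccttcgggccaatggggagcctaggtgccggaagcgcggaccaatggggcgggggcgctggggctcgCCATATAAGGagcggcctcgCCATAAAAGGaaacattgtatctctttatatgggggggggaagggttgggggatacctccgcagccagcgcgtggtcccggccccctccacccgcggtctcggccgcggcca
Dusp1: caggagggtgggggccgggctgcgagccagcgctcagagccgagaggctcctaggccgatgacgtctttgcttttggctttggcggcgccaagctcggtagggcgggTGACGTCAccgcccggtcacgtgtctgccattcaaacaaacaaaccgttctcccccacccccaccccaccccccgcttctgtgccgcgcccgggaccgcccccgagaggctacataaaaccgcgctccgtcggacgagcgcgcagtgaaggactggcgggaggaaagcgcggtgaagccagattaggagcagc
Nfkbia: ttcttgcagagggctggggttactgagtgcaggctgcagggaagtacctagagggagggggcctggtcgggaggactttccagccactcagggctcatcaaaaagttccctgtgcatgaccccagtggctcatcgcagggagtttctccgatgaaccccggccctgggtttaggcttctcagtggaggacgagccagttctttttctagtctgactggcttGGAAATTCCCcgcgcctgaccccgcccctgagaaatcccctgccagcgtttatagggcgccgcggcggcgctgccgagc

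The genes spanned less of the genome than most, introns included, and their 3′ UTRs held decay-type letters more often. In the GENCODE transcripts of the same build, the median gene span was 6714 bases with 3 exons for the 39 genes against 18246.5 bases and 7 exons over 21008 protein-coding genes, and 7 of the 39 (17.9%) had a single exon in the transcript used against 4.79%. The 3′ UTR was longer, with a median of 1189 bases against 913, and held a median of 2.50 copies of ATTTA per kilobase against 1.32 over 19492 genes. TATTTAT was present in 56.4% against 27.4%, and the nonamer TTATTTATT, the core of AU-rich elements, in 10 of 39 (25.6%) against 7.51%. By 3′ UTR length, the nonamer was in 0 of 2 members from 100 to 500 bases (1.75% of 6275 genes), 6 of 13 from 500 to 1000 bases (4.46% of 4103), 3 of 15 from 1000 to 2000 bases (8.895% of 4497) and 1 of 9 above that (16.7% of 4616), a smaller share than over all genes in the shortest and longest classes. The first nonamer, in capitals with 10 bases on either side, is shown for 6 members that the results below turn on.
Fos: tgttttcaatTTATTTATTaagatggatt
Srf: acggcaccacTTATTTATTgttgcctttt
Per1: ggggctgcacTTATTTATTtgggagagac
Dusp1: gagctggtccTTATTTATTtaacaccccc
Zfp36l1: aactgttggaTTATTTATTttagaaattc
Nfkbia: ggaccacgttTTATTTATTgtgcttttga

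The listed genes were most abundant in stem cells. Their summed level was 2457 to 2973 CPM in the 6 stem cell libraries and 255 to 1187 CPM in the 26 oocyte and embryo libraries, and 37 or 38 of the 39 reached 1 CPM in each stem cell library against 12 to 35 elsewhere. Of the 39, 28 had their highest group mean in a stem cell group, 7 in a 4-cell group (Btg1, Ier5 and Mafk with MG132, Dusp6 and Id1 with cycloheximide, Nr4a2 and Trib1 with aphidicolin), 2 in a 2-cell group (Nfil3 with MG132 and Nfkbia with cycloheximide), 1 in MII oocytes (Nfkbiz, 12 months) and 1 in growing oocytes (Dusp2, H3.3K4M). Most AP-1 genes were far lower outside stem cells. Fos, the partner of Jun in AP-1, stood at 55.0 and 56.9 CPM in vehicle stem cells, 4.52 and 2.45 CPM in vehicle 2-cell embryos and 0.364 and 0.034 CPM in vehicle 4-cell embryos. Jun stood at 34.5 and 38.3 CPM in vehicle stem cells and at no more than 2.05 CPM in each oocyte and 2-cell library. In 4-cell embryos Jun stood at 7.38 and 13.5 CPM with cycloheximide, 9.955 and 7.89 CPM with MG132, and 0.89 and 0 CPM with aphidicolin. It was called with none of these drugs against DMSO at that stage. Junb, a Jun relative, stood at 12.98 and 11.9 CPM in H3.3WT growing oocytes and 90.3 and 85.4 CPM in vehicle stem cells. Arc, an actin-linked synaptic gene, stood at 62.3 and 55.9 CPM in vehicle stem cells and at no more than 0.42 CPM in each oocyte or embryo library. Egr2 and Egr3, zinc-finger factors related to Egr1, stayed at or below 0.683 CPM in every oocyte and embryo library.

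Not every member could be tested everywhere. The low-count filter left 38 of the 39 in the stem cell comparisons (Egr3 was left out), 37 in those of 2-cell embryos (without Egr2 and Arc), 36 between stages (without Egr2, Arc and the nuclear receptor gene Nr4a1), 35 in 4-cell embryos (without Egr2, Egr3, Arc and Nr4a1), 32 in growing oocytes (without Fosl2, Egr2, Egr3, Ier5, Dusp6, Zfp36l1 and Arc) and 23 between MII oocytes. A member that passed only through the group where it was high had to differ, so the counts below describe the members tested. Egr3, Nr4a1, Id1 and Zfp36 were called in none of the 21 comparisons by edgeR. Zfp36, the founding member of the family that binds AU-rich elements, stood at 2.98 and 5.34 CPM in vehicle 2-cell embryos, 5.65 and 6.91 CPM in vehicle 4-cell embryos and 18.2 and 17.3 CPM in vehicle stem cells. Id1, which blocks basic helix-loop-helix factors, stood at 11.1 and 17.6 CPM in 4-cell embryos with cycloheximide and 2.28 and 4.44 CPM with DMSO, without overlap.

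Nfkbia, Nfil3, Mcl1, Btg1 or Ier2 led each group when levels were compared per kilobase of exon, and Nfkbia and Mcl1 each led in more than 1 stage. Nfkbia led in growing oocytes (36.3 CPM per kilobase with H3.3WT and 56.4 with H3.3K4M), in MII oocytes (35.3 at 8 weeks and 35.6 at 12 months) and in 2-cell embryos with cycloheximide (145) or MG132 (74.0). Nfil3, a bZIP repressor, led in vehicle (30.8), 12-month (26.8) and aphidicolin (38.0) 2-cell embryos. Mcl1, an anti-apoptotic relative of Bcl2, led in vehicle (77.1) and aphidicolin (67.3) 4-cell embryos, and Btg1, an antiproliferative gene linked to deadenylation, in 4-cell embryos with cycloheximide (30.3) or MG132 (96.1). Mcl1 also led in stem cells with cycloheximide (135) or MG132 (128), and Ier2, a nuclear regulator, in vehicle stem cells (125), ahead of Mcl1 (114).

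**Figure D1:**
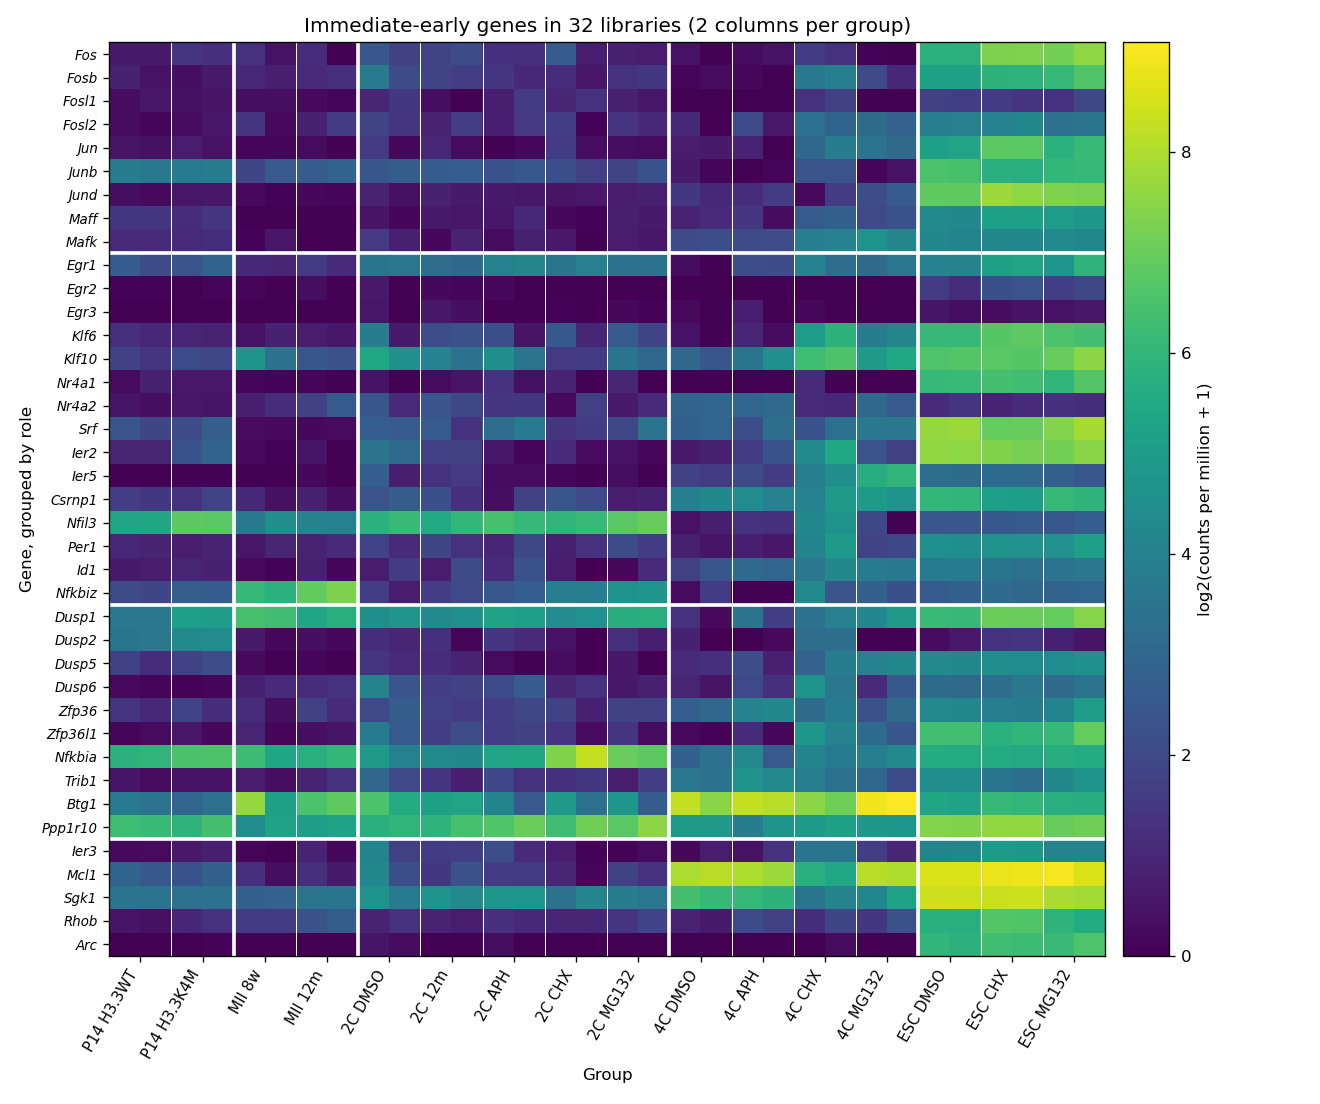
Level of each of the 39 genes in each of the 32 libraries, as the log2 of CPM plus 1; rows are genes grouped by role, and columns are libraries, 2 per group. The 6 stem cell libraries at the right are brightest for most genes, and Nfkbia, Nfil3, Btg1 and Ppp1r10 are bright in oocytes and embryos as well.

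From MII oocyte to 2-cell embryo, several immediate-early mRNAs rose, and 3 that were among the more abundant members in MII oocytes fell. In the comparison of 8-week oocytes with vehicle 2-cell embryos, 9 of the 36 tested members were higher and 3 lower, with 10.1% of all genes higher and 10.1% lower (20.2% in either direction). The median log2 fold change was 1.68 over the members and 0.33 over all genes. Among transcriptional regulators, Ier2 went from 0.181 and 0.071 CPM to 10.4 and 7.72 CPM (5.34 ± 1.28, adjusted p = 0.0159). Srf, the factor that drives many genes of this class, went from 0.217 and 0.177 CPM to 5.57 and 5.16 CPM (3.94 ± 0.82, adjusted p = 0.00798). Egr1, a zinc-finger factor, went from 1.09 and 0.957 CPM to 10.7 and 11.2 CPM (2.61 ± 0.70, adjusted p = 0.0268). The libraries of both groups were far apart and did not overlap for these 3 genes. Nfkbiz, a transcriptional regulator related to Nfkbia, fell from 64.8 and 55.4 CPM to 2.21 and 0.622 CPM (-6.22 ± 0.87, adjusted p = 0.001), the largest decrease among the members.

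Among brakes and effectors the step went both ways. Dusp1, a phosphatase that inactivates MAP kinases, fell from 85.9 and 78.9 CPM to 21.9 and 25.9 CPM (-2.59 ± 0.61, adjusted p = 0.0143). Nfkbia fell from 73.3 and 40.3 CPM to 28.6 and 15 CPM (-2.18 ± 0.41, adjusted p = 0.0048). Both genes were lower in each 2-cell library than in each MII library. Zfp36l1, which binds AU-rich elements and recruits the deadenylase, went up from 0.942 and 0.106 CPM to 12.3 and 5.01 CPM (3.28 ± 1.005, adjusted p = 0.0447), and Mcl1 from 1.38 and 0.248 CPM to 17.4 and 3.59 CPM (2.90 ± 0.81, adjusted p = 0.0317). Dusp6, a phosphatase for ERK (2.62), and Trib1, a pseudokinase scaffold (2.61), were also called higher. Ier3 and Ier5, a survival gene and a nuclear regulator, were called from 3 and 1 counts over both 8-week oocyte libraries and get no fold; in vehicle 2-cell embryos they stood at 16.1 and 2.27 CPM and 5.64 and 0.695 CPM. Srf, Nfkbia and Nfkbiz kept their calls without any 1 of the 4 libraries. The other 9 lost theirs without at least 1 library, and the count was 4 without 2-cell vehicle replicate 1, 11 without its replicate 2, 7 without MII 8-week replicate 1 and 6 without its replicate 2.

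In the comparison of 12-month oocytes with untreated 2-cell embryos of 12-month females, 1 of 36 tested members was higher and 3 lower, with 5.8% and 6.76% of all genes (12.6% in either direction); the medians were 1.33 and 0.19. Nfkbiz fell from 119.6 and 158 CPM to 2.17 and 3.06 CPM (-6.11 ± 0.85, adjusted p = 0.00147) and Nfkbia from 50.7 and 64.0 CPM to 19.6 and 17.6 CPM (-1.99 ± 0.40, adjusted p = 0.0102). Rhob, a small GTPase of the cytoskeleton, fell from 3.82 and 5.41 CPM to 0.891 and 0.669 CPM (-2.92 ± 0.73, adjusted p = 0.027). Srf rose from 0.143 and 0.211 CPM to 4.95 and 1.51 CPM (3.83 ± 0.82, adjusted p = 0.013). No library of 1 group overlapped the other for these 4 genes. The comparison shares no library with that of the 8-week oocytes. With library sizes from genes only, 40% of the called members were higher, against 25% here, and 56.6% of all called genes against 46.2%; for the 8-week comparison these shares were 78.6% against 75% and 62.3% against 49.9%. Nfkbiz kept its call without any 1 library, and Srf, Nfkbia and Rhob did not; the count was 1 without 2-cell 12-month replicate 1, 2 without its replicate 2, 3 without MII 12-month replicate 1 and 1 without its replicate 2.

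Markers of other cells moved over the same step. The 20 granulosa and cumulus genes summed to 598 and 319 CPM in 8-week and 441 and 456 CPM in 12-month MII oocytes against 168 and 149 CPM in vehicle and 121 and 156 CPM in 12-month 2-cell embryos; Serpine2 was the most abundant in each of these groups, and Amh was at 0 in all 8 libraries. The 12 oocyte genes summed to 13213 to 14542 CPM in MII oocytes against 4704 and 5441 CPM in vehicle and 6677 and 7666 CPM in 12-month embryos. The part of these in the decreases of Dusp1, Nfkbia, Nfkbiz and Rhob was not tested.

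Beside the lists that follow, 10.1% of all genes were higher and 10.1% lower between 8-week oocytes and vehicle 2-cell embryos. Of 35 further immediate-early genes outside the list, 33 were tested between these groups, and 10 were higher and 3 lower (median 1.25). Among them were the transcription factors Hes1 (4.77, 0.321 to 16.1 CPM) and Atf3 (4.66, 0.214 to 9.97 CPM), while Rgs2, which dampens G protein signalling, fell (-4.10, 4497 to 465 CPM). Of 36 genes of the ERK, SRF and CREB signalling chain, 7 were higher, among them the ERK1 gene Mapk3 (2.74) and the SRF partner Elk4 (1.94), and 6 lower, among them the ERK-activated kinase gene Mknk1 (-3.25). Feedback inhibitors of ERK signalling had 6 higher, including Spry2 (5.75, 0.507 to 47.2 CPM), and 2 lower of 15. The 28 tested genes of AU-rich decay and deadenylation had 4 higher, including Tob1 (4.05), and 7 lower, including the decay helicase Upf1 (-3.82) and Khsrp (-2.49), which binds AU-rich elements.

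From the vehicle 2-cell to the vehicle 4-cell embryo most of the called members fell, as did most called genes of the whole set, while Mcl1 rose. Among those called, 23.5% of the members and 40% of all genes were higher. Of 36 tested members, 4 were higher and 13 lower, with 19.6% of all genes higher and 29.4% lower (49% in either direction). The called members were 36.1% of those tested for decreases and 11.1% for increases. The median was -0.72 over the members and -0.57 over all genes. Fosb, a Fos relative, fell from 12.4 and 3.37 CPM to 0.091 and 0.206 CPM (-5.27 ± 0.94, adjusted p = 0.00105). Egr1 fell from 10.7 and 11.2 CPM to 0.243 and 0.034 CPM (-5.81 ± 0.84, adjusted p = 0.000299), and Nfil3 from 54.3 and 70.3 CPM to 0.364 and 0.688 CPM (-6.48 ± 0.54, adjusted p = 9.77e-06). The 2 groups did not overlap for any of these, which was part of the rule for naming genes. Dusp1 fell from 21.9 and 25.9 CPM to 1.46 and 0.172 CPM (-4.42 ± 0.68, adjusted p = 0.000446), Zfp36l1 from 12.3 and 5.01 CPM to 0.182 and 0.069 CPM (-5.61 ± 1.14, adjusted p = 0.00251) and Junb from 4.45 and 5.49 CPM to 0.577 and 0.103 CPM (-3.42 ± 0.79, adjusted p = 0.00505).

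Mcl1 rose from 17.4 and 3.59 CPM to 248 and 279 CPM (5.08 ± 0.84, adjusted p = 0.000672), the largest increase among the members. Sgk1, a kinase of the AKT family, rose from 23.9 and 12.9 CPM to 84.8 and 67.6 CPM (2.47 ± 0.39, adjusted p = 0.000483), Btg1 from 91.5 and 46.9 CPM to 306 and 178 CPM (2.23 ± 0.63, adjusted p = 0.0149) and Csrnp1, a nuclear protein, from 4.06 and 5.45 CPM to 14.3 and 18.1 CPM (2.17 ± 0.74, adjusted p = 0.0326). Also called lower were Klf6 (-4.73), Ier3 (-4.15), Dusp6 (-3.49), Ier2 (-3.31), Klf10 (-2.05), Nfkbia (-1.11) and Fosl1, which held 0 counts in vehicle 4-cell embryos and was at least 28.6-fold lower (0 set to 3 counts over the group, for counting error only). Fosb, Junb, Egr1, Nfil3, Dusp1, Zfp36l1, Mcl1 and Sgk1 kept their calls without any 1 library; the other 9 did not, and the count was 11 without 2-cell vehicle replicate 1 and 13 without its replicate 2. Nfkbia also lost its call with DESeq2 size factors and with the DESeq2 test. Over this step the 12 oocyte genes went from 4704 and 5441 CPM to 136 and 150 CPM, the 10 stem cell genes from 115 and 177 CPM to 4318 and 5195 CPM, and the 20 granulosa genes from 168 and 149 CPM to 479 and 465 CPM; their part was not tested.

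Of the 33 further immediate-early genes tested, 6 were higher at the 4-cell stage, such as Klf9 (8.02, 0.233 to 46.8 CPM) and Klf4 (2.61), Krüppel-like factors, and 13 lower, such as Tiparp, an ADP-ribosyltransferase (-3.80, 2266 to 121 CPM), and Rgs2 (-4.44). Their median was -1.53. Beside this and the next lists, 19.6% of all genes were higher and 29.4% lower. Of 36 signalling genes, 9 were higher, such as Sos1 (4.50), which activates RAS, and 14 lower, such as Mapk3 (-6.21, 102 to 1.06 CPM). Among 15 feedback inhibitors 1 was higher (Spry2, 2.90) and 6 lower (Dusp7, -6.86, with the largest decrease). Among 28 decay and deadenylation genes 6 were higher and 15 lower, with Btg4 (-7.98, 7601 to 22.6 CPM), an adaptor of maternal mRNA decay, falling most.

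**Figure D2:**
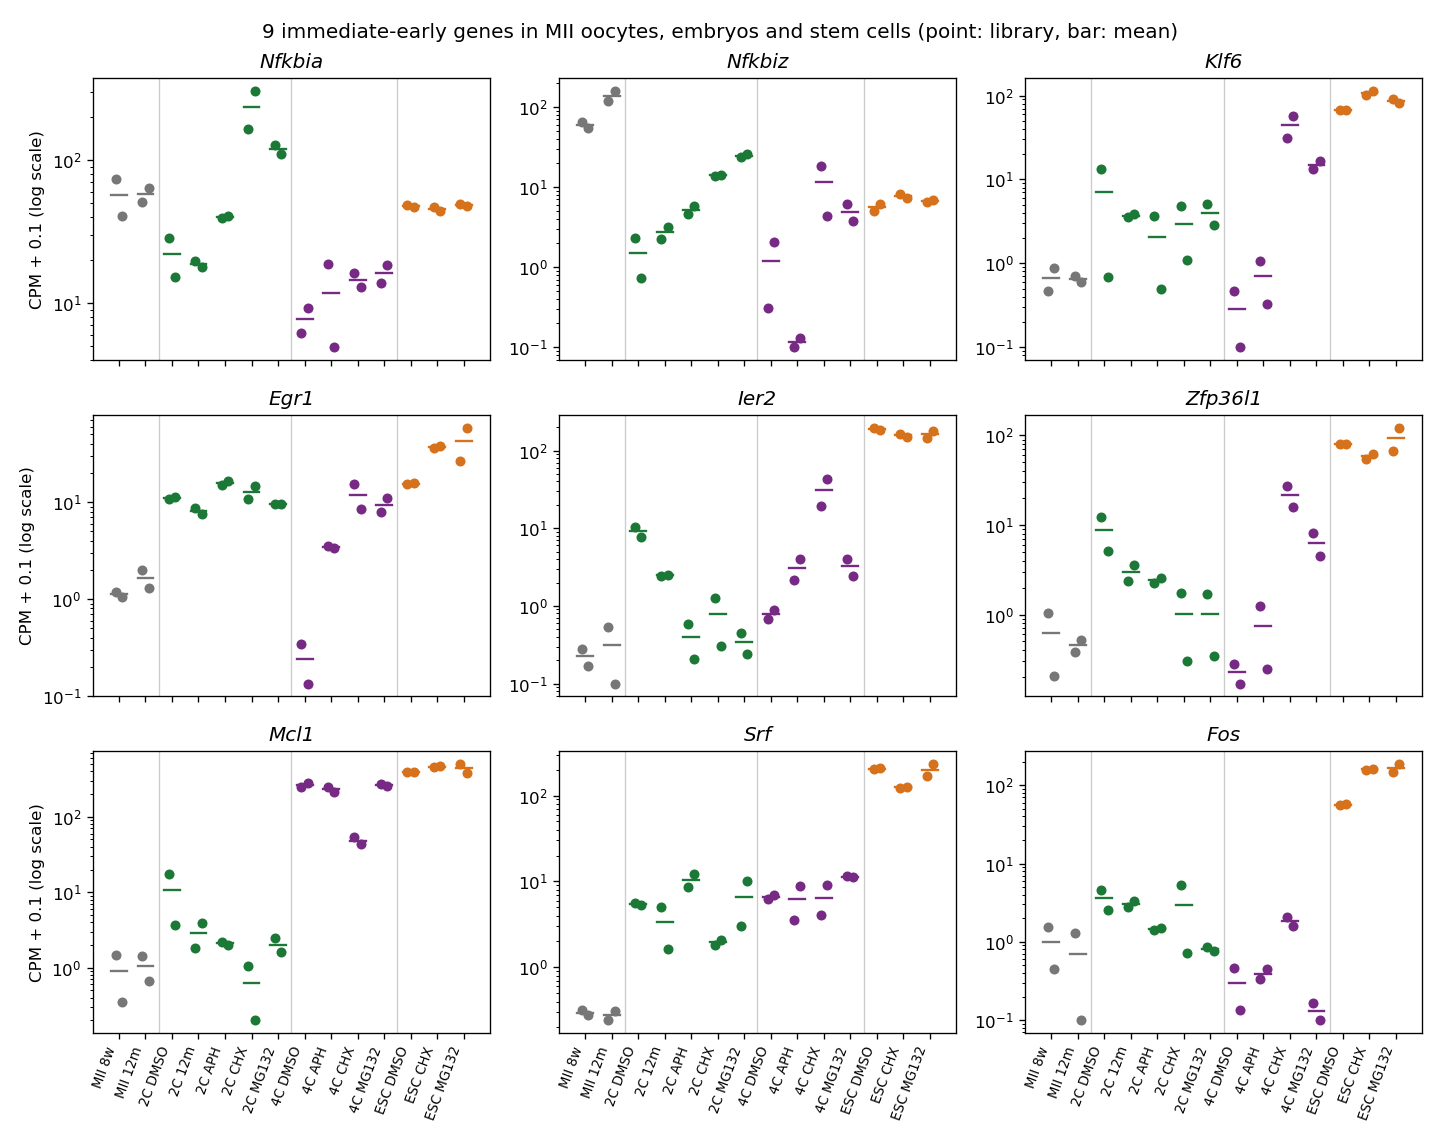
CPM plus 0.1 of 9 members on a log scale in MII oocytes, 2-cell embryos, 4-cell embryos and stem cells; points are libraries, short bars group means. Nfkbia peaks in 2-cell embryos with cycloheximide and MG132, Klf6, Egr1 and Zfp36l1 are low in vehicle 4-cell embryos and high with both drugs, and Mcl1 is high in 4-cell embryos except with cycloheximide.

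With cycloheximide in 2-cell embryos Nfkbia and Nfkbiz were higher than with DMSO, and several nuclear regulators and effectors were lower. Of 37 tested members, 3 were higher and 7 lower than with DMSO, with 11% and 13% of all genes (24% in either direction); the median was -0.81 over the members and -0.26 over all genes. Nfkbia stood at 165 and 304 CPM with cycloheximide and 28.6 and 15 CPM with DMSO (3.84 ± 0.41, adjusted p = 0.00015). Nfkbiz stood at 13.7 and 14.1 CPM against 2.21 and 0.622 CPM (3.70 ± 0.56, adjusted p = 0.000892). In both genes each cycloheximide library was far above each vehicle library. In 8-week MII oocytes Nfkbiz stood higher still, at 64.8 and 55.4 CPM, while Nfkbia stood at 73.3 and 40.3 CPM, between its vehicle and cycloheximide levels. The part of mRNA kept from the oocyte was not tested. Ppp1r10, a subunit that anchors protein phosphatase 1 in the nucleus, was also called higher (77.1 and 139 against 53.6 and 61.4 CPM; 1.32 ± 0.38, adjusted p = 0.0254).

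Klf10, a Krüppel-like repressor, was lower with cycloheximide, 1.84 and 1.97 CPM against 41.4 and 22.9 CPM (-3.67 ± 0.54, adjusted p = 0.000774). Ier2 stood at 1.17 and 0.203 CPM against 10.4 and 7.72 CPM (-3.33 ± 0.95, adjusted p = 0.025), and Mcl1 at 0.954 and 0.102 CPM against 17.4 and 3.59 CPM (-3.90 ± 1.02, adjusted p = 0.0169). Ier5 (-5.01), Ier3 (-4.21), Fosb (-2.76) and Dusp6 (-2.64) were called lower too, and vehicle replicate 1 lay well above replicate 2 in each of the 4 (Ier3, 16.1 and 2.27 CPM). Fos (5.16 and 0.61 against 4.52 and 2.45 CPM), Jun (2.05 and 0.271 against 1.93 and 0.146 CPM) and Egr1 (10.7 and 14.7 against 10.7 and 11.2 CPM) were not called. Klf10, Nfkbia and Nfkbiz kept their calls without any 1 library. Without vehicle replicate 1 only these 3 calls were left, without its replicate 2 there were 8, without cycloheximide replicate 1 there were 10 and without its replicate 2 there were 4. Same-numbered libraries of these groups deviated together, and with replicate number as a block Zfp36l1 (-3.05, adjusted p = 0.0287) and Btg1 (-1.60, adjusted p = 0.0246) were called lower as well.

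With MG132 in 2-cell embryos Nfkbia and Nfkbiz were also higher than with DMSO, Nfkbiz again below its CPM in 8-week MII oocytes. Of 37 tested members, 2 were higher and 4 lower than with DMSO, with 5.1% and 4.68% of all genes (9.77% in either direction); the medians were -1.09 and -0.07. Nfkbiz stood at 23.6 and 25.5 CPM (3.99 ± 0.57, adjusted p = 0.00174) and Nfkbia at 128 and 111 CPM (2.33 ± 0.39, adjusted p = 0.00377), each library above both vehicle libraries. Ier2 stood at 0.345 and 0.138 CPM (-5.40 ± 1.08, adjusted p = 0.00916) and Ier3 at 0.069 and 0.207 CPM (-5.99 ± 1.33, adjusted p = 0.0153), each library below both vehicle libraries. Dusp6 (-4.10) and Klf10 (-2.00) were called lower too. Nfkbia and Nfkbiz kept their calls without any 1 library; without vehicle replicate 1 or MG132 replicate 2 there were 3 calls, without MG132 replicate 1 there were 4, and without vehicle replicate 2 there were 8. With the replicate block Btg1 (-2.54, adjusted p = 0.00596), Zfp36l1 (-3.58, adjusted p = 0.0296) and Ppp1r10 (1.14, adjusted p = 0.0167) were called as well. The cycloheximide and MG132 comparisons share the 2 vehicle libraries. Tested directly against each other, the 2 drugs differed in 1 of 37 members (4.09% of all genes higher, 5.41% lower, 9.5% in either direction): Nfkbia was higher with cycloheximide (1.51 ± 0.38, adjusted p = 0.0284), a call lost without cycloheximide replicate 2 or either MG132 replicate. With the block there were 2, Klf10 being lower with cycloheximide (-1.61, adjusted p = 0.0238).

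Other measures moved with these drugs at the 2-cell stage. The 12 oocyte genes summed to 9062 to 14748 CPM with cycloheximide and 10441 to 10858 CPM with MG132 against 4704 and 5441 CPM with DMSO, and 10 genes of the 2-cell stage to 165 to 195 and 366 to 450 CPM against 1832 and 2074 CPM. The 20 granulosa and cumulus markers summed to 325 to 458 CPM with the drugs against 168 and 149 CPM, with Serpine2 alone at 292 to 388 CPM with the drugs and Inha and Amh at 0 in all 6 libraries. The 6 endothelial markers summed to 36.0 to 58.5 CPM with the drugs against 24.9 and 14.3 CPM. Their part in the changes of the members was not tested. Beside the lists that follow, 11% of all genes were higher and 13% lower with cycloheximide, and 5.1% and 4.68% with MG132. Among 31 tested further immediate-early genes, 2 were higher and 11 lower with cycloheximide (median -1.14), and 2 higher and 9 lower with MG132 (median -1.60). Rgs2 was higher (3.91 with cycloheximide and 2.85 with MG132) and Hes1 lower (-3.95 and -5.02). Myc was lower with cycloheximide (-5.52, 10.8 to 0.177 CPM) and held 0 counts with MG132. Of 36 signalling genes 4 were higher and 2 lower with cycloheximide and 1 each with MG132; Mknk1 was higher with both (1.95 and 2.36). Spry2, a feedback inhibitor of ERK signalling, was lower with both (-6.27 and -6.04), in a group of 14 with 1 higher and 5 lower with cycloheximide and 1 and 3 with MG132. Of 28 decay genes 6 were higher and 2 lower with cycloheximide and 3 and 2 with MG132, with Dcp1a, a decapping factor (3.60 and 2.17), higher and Tob1 (-3.47 and -3.01) lower in both.

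By edgeR with the low-count filter and no replicate block, neither aphidicolin nor maternal age gave a called member at the 2-cell stage. With aphidicolin 0 of 37 tested members were called by edgeR (0.00893% of all genes higher, 0.192% lower, 0.201% in either direction). At an unadjusted p under 0.05 there were 8. No share over all genes is given for this and the like counts below, so they are not a result about the members. DESeq2 called 2 members (521 genes in all) and edgeR without the low-count filter 2 (615 genes in all). The median was -0.78 with a gene at 0 counts set to its bound, against -0.01 over all genes. With the replicate block 2 were called, Ier2 (-5.23, adjusted p = 0.0347; 0.489 and 0.109 CPM against 10.4 and 7.72 CPM) and Btg1 (-2.93, adjusted p = 0.0271; 16 and 4.87 against 91.5 and 46.9 CPM), and in both genes each aphidicolin library lay below each vehicle library. Untreated embryos of 12-month females, compared with vehicle embryos of 6 to 8 weeks, gave 0 of 37 (0.469% of all genes higher, 0.746% lower, 1.21% in either direction). There were 3 members at an unadjusted p under 0.05 and 0 by DESeq2, which called 1047 genes in all (median -0.18 against -0.07). Age and vehicle cannot be told apart here. Leaving out either vehicle library gave 0 calls by edgeR in both comparisons. The genes of the 2-cell stage summed to 462 and 621 CPM with aphidicolin and 1034 and 1119 CPM in 12-month embryos against 1832 and 2074 CPM with DMSO, and the granulosa markers to 321 and 166 and 121 and 156 CPM against 168 and 149 CPM; their part was not tested. Ier2 stood at 2.32 and 2.43 CPM in the 12-month embryos. MII oocytes of 12 months and 8 weeks gave 0 of 23 (0.272% of all genes higher, 0.53% lower, 0.802% in either direction). There were 5 members at an unadjusted p under 0.05 and 2 by DESeq2, which called 1017 genes in all (median 0.36 against -0.01). Nfkbiz stood at 119.6 and 158 CPM at 12 months and 64.8 and 55.4 CPM at 8 weeks; the groups did not overlap and the difference was not called. Without MII 8-week replicate 1 there was 1 call and without its replicate 2 there were 3. Of the 35 further genes, 1 of 24 tested was called in MII oocytes, the kinase gene Sik1, lower at 12 months (-4.13), and 1 of 31 in the 12-month embryos, the kinase gene Pim1, lower (-2.43).

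In 4-cell embryos members that were near 0 with DMSO, such as Klf6, Zfp36l1 and Egr1, were higher with cycloheximide, and Mcl1 and Sgk1 were lower. Of 35 tested members, 11 were higher and 4 lower, with 8.77% and 10.3% of all genes (19% in either direction); the median was 2.61 over the members and 0.44 over all genes. Klf6, a Krüppel-like factor, stood at 30.7 and 57.2 CPM with cycloheximide and 0.364 and 0 CPM with DMSO (7.41 ± 1.24, adjusted p = 0.00464). Egr1 stood at 15.2 and 8.49 CPM against 0.243 and 0.034 CPM (5.87 ± 0.89, adjusted p = 0.00306), and Ier2 at 19.4 and 43.2 CPM against 0.577 and 0.791 CPM (5.10 ± 0.68, adjusted p = 0.00192). For each of the 3 both cycloheximide libraries were many times above both vehicle libraries. Fosb stood at 11.7 and 13.7 CPM against 0.091 and 0.206 CPM (5.96 ± 1.08, adjusted p = 0.00633), Per1, a clock repressor, at 16.3 and 29.2 CPM against 0.759 and 0.413 CPM (4.84 ± 0.72, adjusted p = 0.00272), and Klf10 at 75.4 and 92.1 CPM against 7.14 and 4.44 CPM (3.41 ± 0.47, adjusted p = 0.00208).

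Among brakes, Zfp36l1 stood at 26.8 and 15.7 CPM with cycloheximide against 0.182 and 0.069 CPM with DMSO (6.87 ± 1.161, adjusted p = 0.0048) and Dusp6 at 24.0 and 11.4 CPM against 0.942 and 0.378 CPM (4.25 ± 0.98, adjusted p = 0.0186). Ier3 (4.34), Ier5 (2.60) and the small Maf factor Mafk (1.62) were also called higher. Fosl1 held 0 counts with DMSO and stood at 1.43 and 2.26 CPM with cycloheximide, at least 38.2-fold higher by the bound, but was not called. Mcl1 was lower, 53.6 and 42.9 CPM against 248 and 279 CPM (-2.91 ± 0.26, adjusted p = 0.000405), as were Sgk1, 10.6 and 15.9 CPM against 84.8 and 67.6 CPM (-2.96 ± 0.48, adjusted p = 0.00413), and Nr4a2, an orphan nuclear receptor, 1.19 and 1.04 CPM against 6.44 and 6.81 CPM (-3.02 ± 0.55, adjusted p = 0.00625). Btg1 was called lower (-1.07) although cycloheximide replicate 1 lay above vehicle replicate 2 (184 and 136 against 306 and 178 CPM). In vehicle 2-cell embryos, Egr1 stood at 10.7 and 11.2 CPM and Sgk1 at 23.9 and 12.9 CPM, near their 4-cell levels with cycloheximide. Klf6 stood there at 13.2 and 0.585 CPM and Mcl1 at 17.4 and 3.59 CPM, below theirs. The part of the step from 2 to 4 cells in the drug differences was not tested. Without any 1 library 11 calls were kept, those of Fosb, Klf6, Egr1, Ier2, Ier5, Klf10, Per1, Zfp36l1, Nr4a2, Sgk1 and Mcl1; Ier3, Dusp6, Mafk and Btg1 lost theirs without at least 1.

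With MG132 in 4-cell embryos Klf6, Egr1, Ier5 and 5 other members were higher than with DMSO. Of 35 tested members, 8 were higher and 0 lower by edgeR (2 lower at an unadjusted p under 0.05 and 1 by DESeq2), with 3.06% and 4.33% of all genes, 7.38% in either direction; the median was 1.75 with a gene at or under the floor in both groups left out, against 0 over all genes. Klf6 stood at 13.1 and 16.7 CPM (6.12 ± 1.19, adjusted p = 0.0198), Egr1 at 7.73 and 10.9 CPM (5.85 ± 0.89, adjusted p = 0.00927) and Ier5 at 49.6 and 60.4 CPM, against 2.49 and 1.93 CPM with DMSO (4.48 ± 0.52, adjusted p = 0.00411). These 3 kept their calls without any 1 library. Zfp36l1 (8.11 and 4.38 CPM; 5.40 ± 1.10, adjusted p = 0.0235), Dusp1 (18.1 and 28.8 against 1.46 and 0.172 CPM; 4.68 ± 1.11, adjusted p = 0.0385) and Dusp5, another ERK phosphatase (15.3 and 17.5 against 1.15 and 1.41 CPM; 3.52 ± 0.85, adjusted p = 0.0414), were called, as were Klf10 (2.47) and Mafk (2.37). These 5 lost their calls without at least 1 library, and without vehicle replicate 2 there were 3 calls. Mcl1 stood at 273 and 257 CPM with MG132 and was not called.

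The 4-cell cycloheximide and MG132 comparisons share the vehicle libraries. Tested directly, 2 of 35 members were higher and 4 lower with cycloheximide than with MG132 (4.5% and 5.58% of all genes, 10.1% in either direction). Ier2 (19.4 and 43.2 against 3.98 and 2.33 CPM; 3.07 ± 0.62, adjusted p = 0.0171) and Per1 (2.76 ± 0.64, adjusted p = 0.0293) were higher with cycloheximide. Mcl1 (-2.76 ± 0.26, adjusted p = 0.00193), Btg1 (184 and 136 against 469.9 and 544 CPM; -1.98 ± 0.32, adjusted p = 0.00809), Nr4a2 (-2.73) and Ier5 (-1.89) were lower. Mcl1 and Btg1 kept their calls without any 1 library; the count was 4 without cycloheximide replicate 1, 3 without its replicate 2, 7 without MG132 replicate 1 and 3 without its replicate 2. Aphidicolin gave 0 of 35 calls (0% of all genes higher, 0% lower, 0% in either direction) with edgeR. There were 6 members at an unadjusted p under 0.05, again without a share over all genes. DESeq2 called 2 members (224 genes in all). The median was 0.28 with a gene at or under the floor in both groups left out, against 0.05 over all genes. Egr1 stood at 3.44 and 3.25 CPM with aphidicolin and 0.243 and 0.034 CPM with DMSO, without overlap.

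Marker sums moved with both drugs at the 4-cell stage as well. The 10 stem cell genes summed to 1505 and 1434 CPM with cycloheximide and 2784 and 3616 CPM with MG132 against 4318 and 5195 CPM with DMSO. The 8 blood markers summed to 284 and 265 CPM with cycloheximide and 12.5 and 18.02 CPM with MG132 against 24.5 and 44.6 CPM with DMSO, of which the globin gene Hba-a1 alone gave 275 and 256 CPM with cycloheximide against 19.4 and 39.1 CPM, and Ptprc, Adgre1, Hbb-bs and Hbb-bt were at 0 in both cycloheximide libraries. The 20 granulosa markers summed to 55.6 and 66.3 CPM with cycloheximide and 159 and 178 CPM with MG132 against 479 and 465 CPM. The gap junction gene Gja1 was the most abundant of them with DMSO, 338 and 325 CPM against 1.22 and 2.44 CPM with cycloheximide, where Serpine2 led at 27.5 and 26.3 CPM, and 43.1 and 74.3 CPM with MG132; Amh, Fshr and Ptx3 were at 0 in all 6 libraries. The 6 endothelial markers summed to 12.4 and 8.07 CPM with cycloheximide and 2.32 and 4.34 CPM with MG132 against 24.5 and 21.1 CPM, nearly all of it Pecam1 with DMSO, and Cdh5 was at 0 in all 6. The part of these in the changes of the members was not tested. Beside the lists that follow, 8.77% of all genes were higher and 10.3% lower with cycloheximide, and 3.06% and 4.33% with MG132. Of 33 tested further immediate-early genes, 10 were higher and 3 lower with cycloheximide (median 1.65), and 7 and 2 with MG132 (median 1.28). Btg2, an antiproliferative relative of Btg1, was higher with both (4.84 and 3.93; 1.6 to 62.0 CPM from vehicle to cycloheximide). Klf2 (-2.47) was lower with cycloheximide, and Hes1 (-5.69, 25.7 to 0.553 CPM) with MG132. Atf3, at 1 count over both vehicle libraries, stood at a mean of 60.02 CPM with cycloheximide. Of 35 signalling genes 5 were higher and 2 lower with cycloheximide and 4 were higher with MG132, and the JNK1 gene Mapk8 was higher with both (2.63 and 2.67). Of 15 feedback inhibitors 4 were higher and 1 lower with cycloheximide and 3 and 1 with MG132, with Dusp7 (2.88 and 3.35) and Spry4 (2.13 and 2.48) higher and Spry2 (-2.66 and -2.34) lower in both. Of 28 decay genes 8 were higher and 5 lower with cycloheximide, and 7 were higher with MG132.

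In stem cells cycloheximide raised Fos and Jun and lowered Junb and Csrnp1. Of 38 tested members, 13 were higher and 4 lower, with 13.6% and 13.4% of all genes (27% in either direction); the medians were 0.12 and -0.04. Fos stood at 158 and 161 CPM with cycloheximide and 55.0 and 56.9 CPM with DMSO (1.42 ± 0.14, adjusted p = 0.000804). Jun stood at 109 and 109 CPM against 34.5 and 38.3 CPM (1.50 ± 0.15, adjusted p = 0.000842), and Junb at 53.4 and 52.4 CPM against 90.3 and 85.4 CPM (-0.82 ± 0.10, adjusted p = 0.00199). Replicates lay close together and the groups far apart in each. Csrnp1 stood at 33.7 and 33.3 CPM against 64.1 and 62.8 CPM (-1.01 ± 0.11, adjusted p = 0.00104), Srf at 122 and 126 CPM against 202 and 208 CPM (-0.81 ± 0.16, adjusted p = 0.00876), and Egr1 at 35.9 and 38.3 CPM against 15.3 and 15.6 CPM (1.18 ± 0.32, adjusted p = 0.0316). Of the brakes, Dusp1 was higher (132 and 128 against 70.4 and 67.1 CPM; 0.84 ± 0.17, adjusted p = 0.0112), Dusp2, a nuclear phosphatase, was higher from a low level (1.54 and 1.68 against 0.231 and 0.542 CPM; 1.95), and Trib1 was lower (10.7 and 8.65 against 21.0 and 21.3 CPM; -1.21 ± 0.19, adjusted p = 0.00364).

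Also called higher with cycloheximide in stem cells were Egr2 (1.17), Maff (0.85), Rhob (0.82), Ier3 (0.71), Btg1 (0.70), Jund (0.68), Fosb (0.62) and Klf6 (0.60). Fos, Jun, Junb and Csrnp1 kept their calls without any 1 library, and the other 13 did not: the count was 6 without cycloheximide replicate 1, 9 without its replicate 2, 8 without vehicle replicate 1 and 6 without its replicate 2. With MG132, 5 of 38 members were higher and 1 lower (1.9% and 1.34% of all genes, 3.24% in either direction; medians 0.13 and -0.01). Fos stood at 146 and 186 CPM (1.50 ± 0.14, adjusted p = 0.00561), Fosb at 66.5 and 97.8 CPM against 35.5 and 35.9 CPM (1.14 ± 0.18, adjusted p = 0.0254) and Dusp1 at 121 and 173 CPM (1.04 ± 0.17, adjusted p = 0.0287), with each MG132 library above both vehicle libraries. Jun (0.73) and Maff (0.58) were called higher and Sgk1 (-0.60) lower. None of these 6 calls was kept without either vehicle library, while without either MG132 library the count rose. The 2 MG132 libraries lay further apart than those of the other stem cell groups. Their correlation of log2 levels was 0.986, against 0.998 with DMSO and 0.997 with cycloheximide. The part of this in the counts was not tested, so the rise is not a result about the members.

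Stem cells with cycloheximide and with MG132, which share the vehicle libraries above, differed directly in 7 members higher and 3 lower of 38 (8.78% and 8.7% of all genes, 17.5% in either direction). Dusp2 (1.46), Rhob (0.88), Ier3 (0.84), Jun (0.77), Fosl2 (0.64), Ppp1r10 (0.54) and Sgk1 (0.48) were higher with cycloheximide, and Trib1 (-1.15), Csrnp1 (-0.90) and Srf (-0.72) lower. None of these calls was kept without either cycloheximide library, and the count again rose without either MG132 library. Dusp2 also lost its call with DESeq2. The 10 fibroblast and feeder markers summed to 779 to 795 CPM in the 4 drug libraries against 1271 and 1531 CPM with DMSO, with Col1a1 and Col1a2 the most abundant. The 10 genes of the 2-cell stage summed to 159 and 157 CPM with cycloheximide and 72.9 and 111 CPM with MG132 against 65.4 and 61.1 CPM, with Zscan4c at 28.2 and 26.5 CPM with cycloheximide against 4.30 and 3.16 CPM. The 8 blood markers summed to 51.2 and 53.5 CPM with cycloheximide and 30.1 and 40.0 CPM with MG132 against 29.1 and 33.8 CPM, mostly Cd68 with cycloheximide, and Hbb-bs and Hbb-bt were at 0 in all 6 libraries. The part of these was not tested. Beside the lists that follow, 13.6% of all genes were higher and 13.4% lower with cycloheximide than with DMSO, and 1.9% and 1.34% with MG132. Of 35 further immediate-early genes 9 were higher and 6 lower with cycloheximide, among them Dusp8 (1.91), Atf3 (1.64) and Myc (-1.46), and 3 and 1 with MG132, among them Dusp8 (1.10) and Id3 (-1.28), an inhibitor of basic helix-loop-helix factors. Of 36 signalling genes 1 was higher and 7 lower with cycloheximide. Of 16 feedback inhibitors 1 was higher and 1 lower with cycloheximide, and 2 were lower with MG132, Spry2 (-0.88) and Spry4 (-0.63). Of 28 decay genes 1 was higher and 5 lower with cycloheximide, and 1 was higher with MG132.

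**Figure D3:**
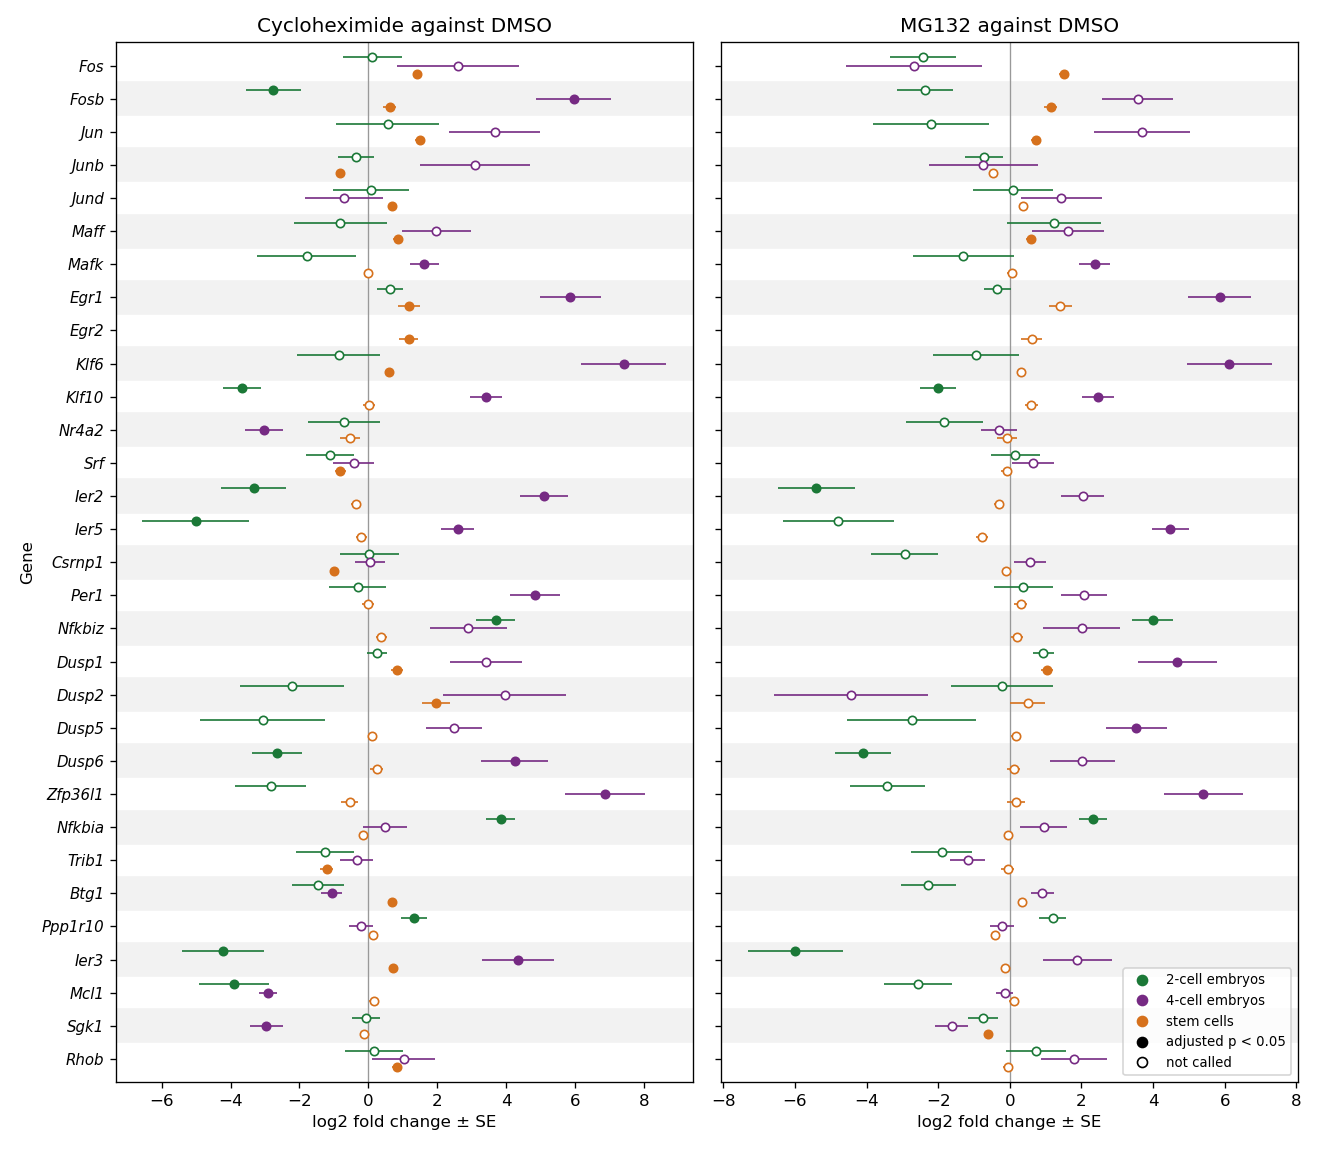
Log2 fold change (point) with its standard error (bar) of cycloheximide (left) and MG132 (right) against DMSO for the 31 members called in at least 1 of the 6 comparisons; colours mark 2-cell embryos, 4-cell embryos and stem cells, and filled points are called. Klf6, Zfp36l1, Egr1, Ier2 and Klf10 lie to the right in 4-cell embryos with both drugs, and Ier2, Ier3 and Klf10 to the left in 2-cell embryos.

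The drug effects differed between systems when the difference itself was tested. Each difference also holds the difference between the DMSO groups, where 13 members were lower and 4 higher at 4 than at 2 cells. Egr1 with cycloheximide stood at 10.7 and 14.7 CPM at 2 cells and 15.2 and 8.49 CPM at 4 cells. Its vehicle level went from 10.7 and 11.2 CPM to 0.243 and 0.034 CPM. For Ier2 the cycloheximide level differed too, 1.17 and 0.203 against 19.4 and 43.2 CPM. The part of the vehicle groups was not tested. The effect of cycloheximide, each against its own DMSO group, was higher at 4 cells than at 2 cells for 14 of 37 members and lower for 2 (14.3% and 6.65% of all genes, 20.9% in either direction; medians 3.46 and 1.25). For MG132 it was higher for 13 of 37 and lower for 0 by edgeR (1 lower at an unadjusted p under 0.05 and 0 by DESeq2; 6.73% and 4.49% of all genes, 11.2% in either direction; medians 1.68 and 0.42). With cycloheximide Ier2 was lower than with DMSO at 2 cells and higher at 4 cells. Its difference was 8.47 ± 1.30, adjusted p = 0.000307, for cycloheximide and 7.42 ± 1.31, adjusted p = 0.00189, for MG132. The Klf10 differences were 7.12 ± 0.78, adjusted p = 1.83e-05 and 4.45 ± 0.73, adjusted p = 0.00119. Nfkbia went the other way with cycloheximide (-3.31 ± 0.76, adjusted p = 0.006), from a rise at 2 cells to 16.1 and 12.8 CPM against 6.07 and 9.08 CPM at 4 cells. Between stem cells and 2-cell embryos, the cycloheximide effect was higher in stem cells for 8 of 39 members and lower for 2 (10.5% and 8.31% of all genes, 18.8% in either direction; medians 0.97 and 0.37), and the MG132 effect for 7 and 2 (3.7% and 3.37%, 7.07% in either direction; medians 1.38 and 0.13). The 8 and the 7 include Arc, which passed the filter only through stem cells. Nfkbia (-3.997 ± 0.49, adjusted p = 0.000494 for cycloheximide) and Nfkbiz (-3.33 ± 0.66, adjusted p = 0.00592) were lower in stem cells, where Nfkbia stood at 47.1 and 43.8 CPM with cycloheximide and 48.7 and 46.8 CPM with DMSO. With the replicate block, Ppp1r10 was called as well for cycloheximide (-1.47, adjusted p = 0.0276) and MG132 (-1.42, adjusted p = 0.0477) at 4 against 2 cells and for MG132 in stem cells against 2 cells (-1.60, adjusted p = 0.0351), and Csrnp1 lost its MG132 call at 4 against 2 cells (3.47, adjusted p = 0.0502). Without any 1 library 11 of 16, 6 of 13, 3 of 10 and 0 of 9 calls were kept in these 4 comparisons, in the order given. System and kit cannot be told apart in these last 2 comparisons.

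In growing oocytes the H3.3K4M transgene went with higher levels of 9 members. Of 32 tested, 9 were higher and 0 lower than with H3.3WT by edgeR (0 lower also at an unadjusted p under 0.05, and 0 by DESeq2), with 8.64% of all genes higher and 13.7% lower (22.4% in either direction). The median was 0.39 over the members and 0.003 over all genes. Ier2 stood at 3.93 and 6.42 CPM with H3.3K4M and 0.915 and 0.934 CPM with H3.3WT (2.54 ± 0.28, adjusted p = 5.03e-05), and Fos at 1.73 and 1.38 CPM against 0.561 and 0.58 CPM (1.52 ± 0.36, adjusted p = 0.00853). Nfil3 stood at 112 and 107 CPM against 38.7 and 40.7 CPM (1.55 ± 0.17, adjusted p = 5.41e-05). None of the 9 genes overlapped between the groups. Dusp1 stood at 34.0 and 32.4 CPM against 11.2 and 11.5 CPM (1.63 ± 0.18, adjusted p = 5.49e-05), Dusp2 at 19.4 and 19.9 CPM against 10.6 and 11.1 CPM (0.93 ± 0.19, adjusted p = 0.00327), and Nfkbia at 88.6 and 93.0 CPM against 56.2 and 60.5 CPM (0.71 ± 0.16, adjusted p = 0.00794). Nfkbiz (0.94), Rhob (1.71) and Ier3 (1.82) were also called, the last 2 at no more than 1.44 CPM in any of the 4 libraries. Junb (12.1 and 13.2 against 12.98 and 11.9 CPM), Egr1 (3.97 and 6.45 against 5.22 and 3.35 CPM) and Srf (3.2 and 5.8 against 4.22 and 2.77 CPM) were not called.

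Fos, Ier2, Nfil3, Dusp1, Dusp2 and Rhob kept their calls without any 1 of the 4 libraries; Nfkbia lost its call without H3.3WT replicate 1, Nfkbiz without H3.3WT replicate 2, and Ier3 without 3 of the 4 and with DESeq2. Markers of other cells moved as well: 6 endothelial genes summed to 1.51 and 2.00 CPM with H3.3K4M against 10.1 and 8.79 CPM, with Cdh5 at 0 in all 4 libraries, and 20 granulosa genes to 363 and 361 CPM against 394 and 450 CPM, nearly all of it Serpine2, with Amh at 0. The 10 genes of the 2-cell stage summed to 106 and 114 CPM with H3.3K4M against 463 and 347 CPM, with Tcstv1 at 23.5 and 29.2 against 255 and 182 CPM and Tdpoz4 at 0 in all 4 libraries. The part of these in the result was not tested. Beside the lists that follow, 8.64% of all genes were higher and 13.7% lower. Of 23 tested further immediate-early genes 5 were higher (median 0.07), led by Id3 (2.23, 62.6 to 279 CPM). Of 34 signalling genes 3 were higher, the SRF partner Elk3 (1.81), Mapk3 (1.15) and Map2k2 (0.81), and 1 lower, Rps6ka5 (-1.61). Of 11 feedback inhibitors 2 were lower, and of 28 decay genes 1 was higher and 3 were lower.

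**Figure D4:**
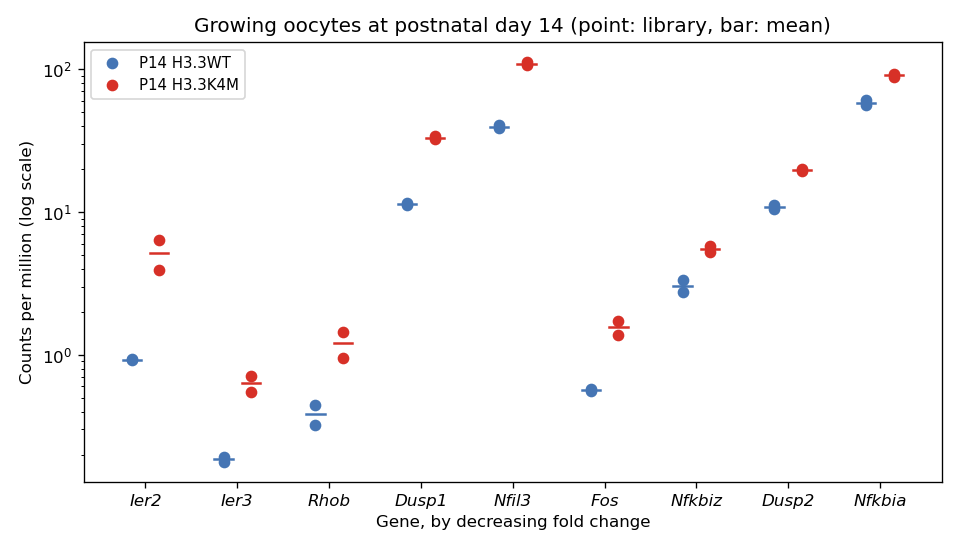
CPM on a log scale of the 9 members called between H3.3K4M and H3.3WT growing oocytes, ordered by fold change; points are libraries, short bars group means, n = 2. Both H3.3K4M libraries lie above both H3.3WT libraries for each gene, from Ier2 (2.54 on the log2 scale) to Nfkbia (0.71).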

How the data were processed

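Whole-number counts of reads per gene and repeat subfamily were used as the authors deposited them, with total counts per library of 14313718 to 34713159. Per the submitters' processing notes, reads were trimmed with cutadapt 1.16 and aligned with STAR to mm10. The sources used here name no counting tool or annotation and do not say how strand and reads with several matches were handled, so overlapping and near-identical genes could share counts. Of 55335 gene rows, 55154 matched the GENCODE annotation without version numbers, and 1153 repeat subfamilies entered library sizes only. R 4.3.3 ran edgeR 4.0.16 (filterByExpr with minimum count 10 and total 15, TMM over genes and repeats, quasi-likelihood F-test) in 8 fits for 21 comparisons, with Benjamini-Hochberg adjustment over all genes tested and a threshold of 0.05. DESeq2 1.42.0 (Wald test and size factors), gene-only scaling, no filter, a replicate block and 66 leave-one-out fits were the alternatives. The test was tried on simulated data. Depth sets precision for low genes; a group at 0 counts was set to 3 counts for a bound, which covers counting error only, since no molecular identifiers are stated.

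The 39 members and all lists were chosen with earlier results of these data known. Named genes were, per comparison, called members whose groups did not overlap and whose higher group reached 5 CPM, at most 8 by size of change, plus 12 index members; other called members are named to account for every member, chosen after their values were seen. Replicate numbers are given in the labels, and no label says what they share. Among 2-cell groups of 6 to 8 weeks, the 6 pairs of same-numbered libraries deviated together (correlations 0.234 to 0.459), so the block is given beside those results; the 12-month group did not (-0.0727 to 0.106).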

Additional observations from a re-analysis of the deposited data

Results flagged for a closer look

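The effects of the drugs, each against its own DMSO group, differed between systems by a test of the difference itself (edgeR, adjusted p under 0.05), and every member that passed is given here as the log2 difference. Each value also holds the difference between the DMSO groups of the systems, and the part of that was not tested. Cycloheximide at 4 cells minus 2 cells gave 16 members: Zfp36l1 9.76, Fosb 8.76, Ier3 8.60, Ier2 8.47, Fosl1 8.34, Klf6 8.31, Ier5 7.64, Klf10 7.12, Dusp6 6.93, Dusp5 5.61, Egr1 5.30, Per1 5.19, Nfil3 4.48, Dusp1 3.21, Sgk1 -2.84 and Nfkbia -3.31. MG132 at 4 cells minus 2 cells gave 13: Ier5 9.38, Zfp36l1 8.82, Ier3 7.83, Ier2 7.42, Klf6 7.04, Dusp5 6.36, Egr1 6.16, Dusp6 6.07, Fosb 5.88, Klf10 4.45, Dusp1 3.70, Csrnp1 3.45 and Btg1 3.20.

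Cycloheximide in stem cells minus 2-cell embryos gave 10: Arc 6.59, Ier3 4.95, Ier5 4.84, Mcl1 4.08, Klf10 3.70, Fosb 3.39, Ier2 2.98, Dusp6 2.89, Nfkbiz -3.33 and Nfkbia -4.0. MG132 in stem cells minus 2-cell embryos gave 9: Arc 6.74, Ier3 5.83, Ier2 5.18, Dusp6 4.19, Fos 3.93, Fosb 3.48, Klf10 2.59, Nfkbia -2.39 and Nfkbiz -3.81. The Fosl1 value rests on 0 counts in vehicle 4-cell embryos and the Arc values on 0 counts in 2-cell embryos with either drug, so their sizes depend on the prior count of the fit. Other large values rest on few counts as well. In vehicle 4-cell embryos the means were 0.126 CPM for Zfp36l1, 0.139 for Egr1, 0.149 for Fosb (3 and 6 counts) and 0.182 for Klf6. Ier3 was also near 0 in 2-cell embryos with MG132. The sizes of these differences are therefore imprecise. Arc was too low to be tested among 2-cell embryos and passed the filter here only through stem cells. In stem cells it was called with neither drug against DMSO, so its values cannot be read as a difference of drug effects. Replicates 1 and 2 of vehicle 2-cell embryos, which all 4 comparisons use, stood apart for several of these genes (Ier3 at 16.1 and 2.27 CPM, Klf6 at 13.2 and 0.585 CPM).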

How the results depend on the processing

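No called member changed direction under any alternative. The DESeq2 test gave other counts of called members than edgeR for MII 12 months against 8 weeks (2 against 0), 12-month MII to 2-cell (9 against 4), 2-cell aphidicolin (2 against 0), 2-cell MG132 (15 against 6), 2-cell cycloheximide against MG132 (5 against 1), 4-cell aphidicolin (2 against 0), 4-cell cycloheximide (23 against 15), 4-cell MG132 (16 against 8), 4-cell cycloheximide against MG132 (10 against 6) and the MG132 effect in stem cells minus 2 cells (15 against 9). Without the low-count filter the counts were 1, 9, 2, 12, 3, 3, 23 and 15 for the first 8 of these. Smaller gaps between DESeq2 and edgeR are not listed, here and for the counts over all genes below. Examples are 14 against 12 members for 8-week MII to 2-cell, 9 against 6 for stem cells with MG132 and 8 against 9 for growing oocytes. The cause was not tested. Scaling by DESeq2 size factors moved the median of all genes by 0.21 (2 to 4 cells) and -0.13 (2-cell MG132), and by genes only by -0.16 (2 to 4 cells), 0.31 (8-week MII to 2-cell) and 0.20 (12-month).

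The replicate block gave 2 members for 2-cell aphidicolin, 2 for 2-cell cycloheximide against MG132 and 2 in place of 6 for stem cells with MG132; the numbers of stem cell and 4-cell libraries share only a number (correlations 0.0598 to 0.234 and -0.044 to 0.168). In the 2-cell comparisons and the differences that use them, the block changed no call of a member beyond those given with the results; between stages and in 4-cell embryos and stem cells it changed 14 calls. In growing and MII oocytes same-numbered libraries deviated in opposite directions (-0.48 and -0.231), and crossed pairing, chosen after seeing the data, gave 11 and 0 members.

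Leaving out each library in turn gave 7 to 11 members for growing oocytes, 0 to 3 for MII age, 4 to 11 for 8-week MII to 2-cell, 1 to 3 for 12-month MII to 2-cell, 11 to 13 for 2 to 4 cells, 3 to 10 for 2-cell cycloheximide, 3 to 8 for 2-cell MG132, 0 to 1 between these, 11 to 15 for 4-cell cycloheximide, 3 to 7 for 4-cell MG132, 3 to 7 between these, 6 to 9 for stem cells with cycloheximide, 0 to 24 with MG132 and 0 to 29 between these. The 4-minus-2-cell differences gave 11 to 19 (cycloheximide) and 6 to 12 (MG132), the stem-cell differences 3 to 15 and 1 to 13, and 2-cell age and both aphidicolin comparisons 0. With 1 library left in a group, that library is assumed to vary like the others, and no share over all genes is given beside these ranges. Over all genes, DESeq2 called 1017 against 121 by edgeR for MII age, 4397 against 2884 for 12-month MII to 2-cell, 1047 against 272 for 2-cell age, 521 against 45 for 2-cell aphidicolin, 3561 against 2188 for 2-cell MG132, 3558 against 2128 for 2-cell cycloheximide against MG132, 224 against 0 for 4-cell aphidicolin, 6584 against 4289 for 4-cell cycloheximide, 3843 against 1663 for 4-cell MG132, 4283 against 2271 between these, and 4828 against 3051 and 3098 against 1741 for the MG132 effect at 4 cells and in stem cells minus 2 cells. Without the filter the counts were 788 (MII age), 962 (2-cell age), 615 (2-cell aphidicolin), 347 (4-cell aphidicolin), 3463 (4-cell MG132), 3932 (4-cell cycloheximide against MG132) and 1336 against 606 (stem cells with MG132). With the block they were 188 (MII age), 438 (2-cell age), 117 (2-cell aphidicolin) and 203 (stem cells with MG132), and with crossed numbers 5727 against 3444 in growing oocytes. Depth limits members under about 10 counts in a group, such as Egr1, Fosb and Zfp36l1 in vehicle 4-cell embryos.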
